A study of Mus musculus with 6 samples.

Results

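Chemokines are small secreted proteins that guide white blood cells, and 10 of them were followed here in the skeletal muscle of aged and young mice: Ccl2, Ccl5, Ccl6, Ccl7, Ccl8, Ccl9, Ccl11, Cxcl12, Cxcl13 and Cxcl14. They were found as every probe set of the array that the platform's gene table gives exactly 1 of these symbols, dim probe sets included, which gave 10 of the 18193 named genes of the array, on 16 of its 45037 probe sets (control probe sets apart). Of the genes, 5 had 1 probe set, 4 had 2 and Cxcl12 had 3. The samples were total RNA of the gastrocnemius, the large calf muscle, of male mice of a strain labelled C57B1/6 with a normal karyotype. There were 3 arrays of aged muscle (replicates 51, 52 and 53) and 3 of young muscle (replicates 1, 2 and 3), with no treatment or engineered allele named for either group. The labels used here state neither the ages nor that each array came from its own animal, and the p-values therefore speak to the spread among these arrays, part of which may be technical. Each value is the signal of a probe set, a linear intensity made with MAS5 and scaled to the same trimmed mean, 1500, on every array. Each difference is the mean log2 signal of aged muscle less that of young muscle (± the standard error from limma, 3 arrays in each group).

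Chemokines act on receptors of white blood cells and set up gradients along the matrix and vessel walls. CC and CXC chemokines are named for the spacing of a pair of cysteines near the start of the protein. In muscle they are best known for drawing in neutrophils, monocytes and lymphocytes after injury, and Cxcl12 for homeostatic traffic of stem and immune cells. Most CC members lie side by side in gene clusters. In RefSeq (GRCm38.p6) the protein-coding genes Ccl2, Ccl7, Ccl11, Ccl12, Ccl8 and Ccl1 follow each other on chromosome 11, and Ccl5, Ccl9, Ccl6 and Ccl3 do so elsewhere on it. Cxcl12, Cxcl13 and Cxcl14 lie apart, on chromosomes 6, 5 and 13.

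The 6 arrays had median signals between 637 and 833, and no array duplicated another (correlation of log2 signals between 0.662 and 0.749). The fibre genes Acta1, Ckm and Myh4 were among the bright genes of every array. Fluidics station 1 processed aged replicate 51 and the 3 young arrays with 1 protocol name, and station 2 processed aged replicates 52 and 53 with another. The mean log2 ratio of 3 prime to 5 prime signal of the actin and Gapdh controls, a measure of RNA quality, was 2.11, 2.00 and 2.86 on the aged arrays and 1.71, 1.77 and 1.75 on the young arrays.

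Ccl8 was the only one of the 10 chemokines that passed the test: its signal rose in aged muscle, 3.86-fold above young muscle (log2 difference 1.95 ± 0.35 SE, adjusted p = 0.00527). The other 15 probe sets did not pass. Those of Cxcl12 and Ccl6 included probe sets with clear signal in both groups, whereas Ccl2, Ccl5 and Ccl7 were near background on all 6 arrays. Over all probe sets 265 passed (0.588%), 85 higher in aged muscle (0.189%) and 180 lower (0.4%). Among the 16 chemokine probe sets 1 passed, and 3 had an unadjusted p under 0.05, as 7.84% of all probe sets did. The 3 aged arrays lay above the 3 young ones on 4 chemokine probe sets and below them on 1, where the aged arrays lay above on 6.99% of all probe sets, below on 6.22% and on either side on 13.2%. By sign alone 11 probe sets were higher and 5 lower, but of those 11 quantile normalization turned those of Ccl5 and Ccl6 (1420249_s_at). Median centring lowers every difference alike and so turned those closest to 0, the same ones and Cxcl14 (1418456_a_at). With 1 probe set per gene, the brightest, the median difference was 0.044, beside 0.076 over all probe sets. That median had no stable sign: it was -0.40 without aged replicate 51, 0.60 with the fluidics station as a covariate and 0.62 with all probe sets of a gene averaged.

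The value table holds no detection calls, so background was judged from 78 probe sets named for olfactory and vomeronasal receptors. As a set these genes were taken to be mostly silent in muscle, which was not tested. A chemokine probe set was called near background on an array where its signal was at or below the 95th percentile of these. This limit lay between 1139 and 2057 on the 6 arrays. It was 2057, 1415 and 1490 on aged replicates 51, 52 and 53, and 1139, 1265 and 1473 on young replicates 1, 2 and 3. Counts of arrays above background therefore depend on the limits as well as on the signal. By this limit 4 chemokine probe sets were near background on all 6 arrays, 4 were above it on all 6, and 8 were above it on some arrays. Of all probe sets 51.0% were near background on all 6 arrays. The 4 above it everywhere were those of Ccl8, a pair of Cxcl12 and 1 of Ccl6. Each probe set has its own brightness, so signals of different probe sets do not rank the genes by amount of RNA.

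**Figure D1:**
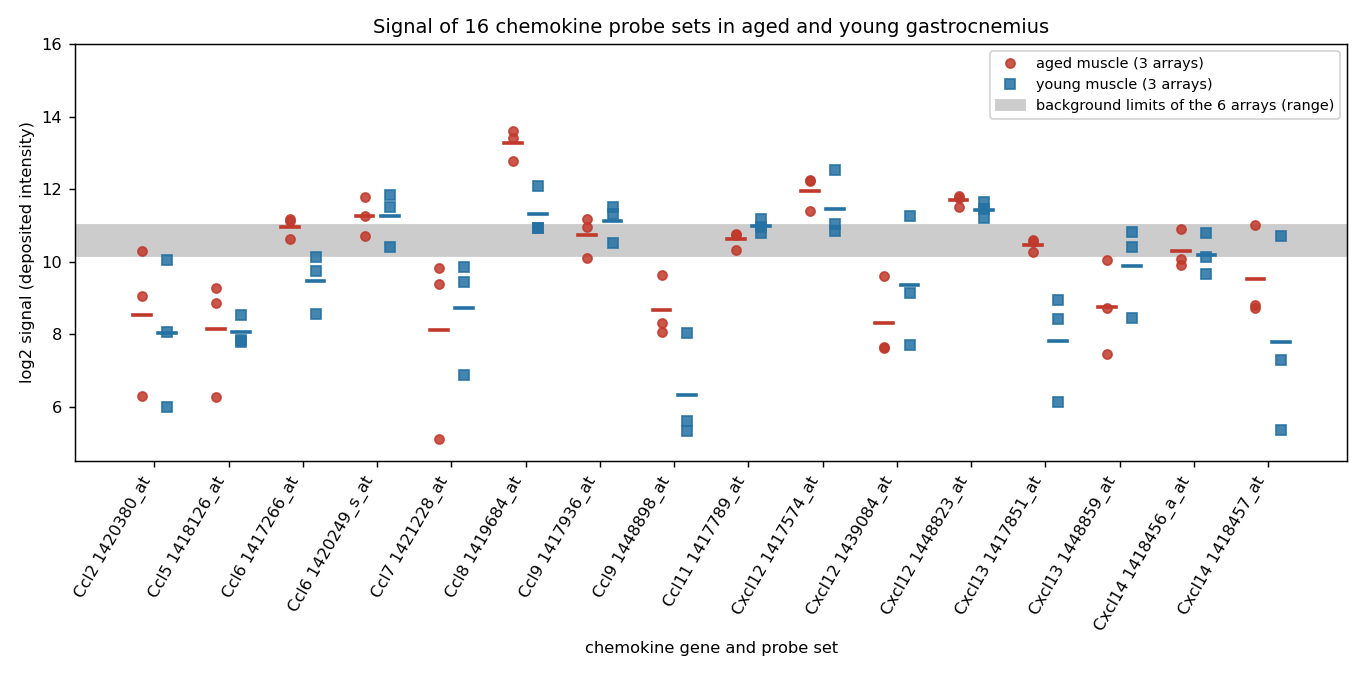
Log2 signal of the 16 chemokine probe sets on the 3 aged arrays (red circles) and the 3 young arrays (blue squares), with the mean of each group as a bar and the range of the background limits of the 6 arrays in grey. The aged arrays of Ccl8 all lie above its young arrays, and every point of Ccl2, Ccl5 and Ccl7 is under the limit of its own array, with 1 aged point of Ccl2 inside the grey band.

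Ccl8, also called MCP-2, belongs to the monocyte chemoattractant proteins and in the mouse acts on the receptor Ccr8. Its probe set 1419684_at had signals of 12344, 7026 and 10959 in aged muscle (replicates 51, 52 and 53), against 1945, 4378 and 1944 in young muscle (replicates 1, 2 and 3). The lowest aged array lay above the highest young one, young replicate 2, and all 6 were above the background limit. The mean log2 signal was 13.26 ± 0.43 in aged muscle and 11.32 ± 0.68 in young muscle (SD, n = 3 each), and the 95% interval of the difference ran from 1.21 to 2.68. In bulk muscle more cells of a type that makes Ccl8 and more Ccl8 RNA per cell cannot be told apart. By its p the probe set ranked 157 among all 45037.

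The Ccl8 call rested on the spread model and was lost with the RNA quality ratio as a covariate. That ratio was higher on every aged array than on every young one. Leaving out young replicate 1 narrowly lost the call, while leaving out young replicate 3 kept it at nearly the same difference (1.75, adjusted p = 0.0377). Without young replicate 1 the difference was 1.75 (adjusted p = 0.0505), with the RNA quality ratio as a covariate it was 1.69 (adjusted p = 0.271), and without a trend of the spread with brightness it was 1.95 (adjusted p = 0.547), where 0 probe sets of the whole table passed and 3098 had an unadjusted p under 0.05. On the arrays of station 1 alone, aged replicate 51 against the 3 young arrays, it was 2.28 (adjusted p = 0.0286), a fit that takes the spread of aged muscle from the young arrays.

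**Figure D2:**
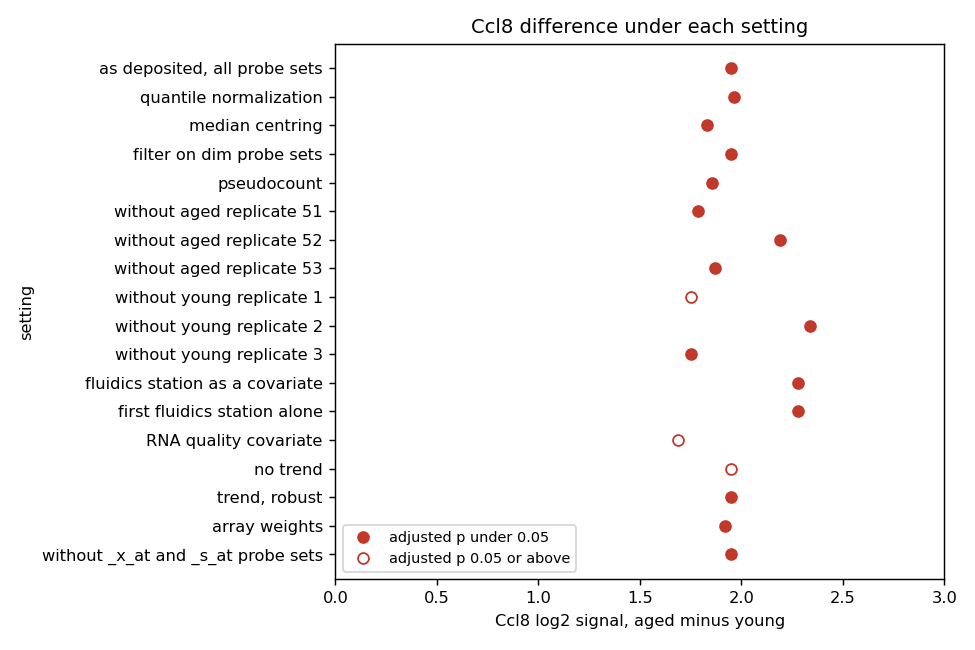
Difference of Ccl8 between aged and young muscle (log2 signal, aged minus young) under each processing setting. Filled points have an adjusted p under 0.05 and open points do not, and the values run from 1.69 to 2.34.

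The genes whose signal went most closely with that of Ccl8 over the 6 arrays, among 18716 named probe sets above the median brightness, were Igk, the kappa light chain of immunoglobulins (Pearson r 0.996), Samhd1, which breaks down nucleotides (0.996), and Dnajb4, a chaperone (0.990). Igk had signals of 4922, 3435 and 4482 in aged muscle and 1348, 2223 and 1472 in young muscle. On Igk, Samhd1 and Dnajb4, as on Ccl8, aged replicate 52 was the lowest aged array and young replicate 2 the highest young one. These correlations are descriptions: the 6 points share a split into aged and young arrays, and 44 probe sets had r above 0.95.

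Beside Ccl8 stand 3 probe sets on which the aged arrays also lay above the young ones but which did not pass, 1 each of Ccl6, Ccl9 and Cxcl13. The promoters of these 4 genes are shown because these are the chemokines with such a probe set. Each is the 250 bases before the gene's start from RefSeq (GRCm38.p6), 5′ to 3′ on the gene's strand, and capitals mark matches to any of 4 motifs searched on both strands: TATAAA, the palindromic STAT-type TTCNNNGAA, an NF-kappaB-type motif (3 G, 3 free bases, 2 T and 2 C) and the AP-1-type TGANTCA.
Ccl8 (chr11:82114935-82115184, plus strand): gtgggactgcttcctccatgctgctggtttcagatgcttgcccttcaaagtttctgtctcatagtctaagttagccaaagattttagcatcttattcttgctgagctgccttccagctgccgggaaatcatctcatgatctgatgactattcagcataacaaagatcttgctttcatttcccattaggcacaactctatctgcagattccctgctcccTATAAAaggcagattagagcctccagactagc
Ccl6 (chr11:83593088-83593337, minus strand): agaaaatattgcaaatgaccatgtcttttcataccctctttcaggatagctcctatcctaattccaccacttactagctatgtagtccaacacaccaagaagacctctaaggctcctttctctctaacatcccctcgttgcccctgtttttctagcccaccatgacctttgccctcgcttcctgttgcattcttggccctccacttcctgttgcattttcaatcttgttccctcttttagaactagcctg
Ccl9 (chr11:83578637-83578886, minus strand): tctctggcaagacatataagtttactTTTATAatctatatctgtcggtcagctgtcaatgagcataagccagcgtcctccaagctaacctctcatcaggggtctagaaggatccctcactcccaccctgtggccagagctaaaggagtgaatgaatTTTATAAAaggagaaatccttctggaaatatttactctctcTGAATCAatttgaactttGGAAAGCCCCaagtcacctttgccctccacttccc
Cxcl13 (chr5:95956689-95956938, plus strand): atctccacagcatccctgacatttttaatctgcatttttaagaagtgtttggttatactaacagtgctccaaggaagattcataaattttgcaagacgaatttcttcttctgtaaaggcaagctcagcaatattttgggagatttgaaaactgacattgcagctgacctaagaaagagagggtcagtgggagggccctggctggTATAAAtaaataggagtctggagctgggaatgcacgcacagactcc
Among 32851 promoters of this length in RefSeq's set TATAAA was held by 12.4%, TTCNNNGAA by 7.02%, the NF-kappaB-type motif by 4.65% and TGANTCA by 6.75%. Ccl8 and Cxcl13 each held 1 match, a TATAAA that starts 32 bases before the start in Ccl8 and 46 before it in Cxcl13. Ccl9 held 3 TATAAA matches, of which the pair near base 92 overlap on opposite strands, and 1 match each to TGANTCA and the NF-kappaB-type motif. The Ccl6 window held none of the 4. A match is a string of letters, and nothing in these arrays measured binding.

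Ccl6 and Ccl9 are neighbouring CC chemokines of rodents that act on Ccr1. For Ccl6 the 2 probe sets differed. Probe set 1417266_at had signals of 2296, 1565 and 2209 in aged muscle, against 1111, 378 and 858 in young muscle (log2 difference 1.49 ± 0.58 SE, adjusted p = 0.484). The groups did not overlap, all 3 young arrays were near background and the 3 aged arrays above it. With the young arrays set at the limit the ratio of means was at least 1.55-fold, which leaves out the spread of the arrays. The 95% interval of the measured difference ran from 0.27 to 2.70. The brighter probe set, 1420249_s_at, of a kind prone to cross-hybridisation, had 3525, 1669 and 2434 in aged muscle and 1344, 2900.4 and 3654 in young muscle (0.00 ± 0.45, 95% interval from -0.92 to 0.93). Its groups overlapped throughout.

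The probe sets of Ccl9 also pointed apart. Probe set 1417936_at had signals of 1972, 1086 and 2308 in aged muscle, against 1461, 2538 and 2886 in young muscle (log2 difference -0.37 ± 0.46, adjusted p = 0.901), with overlapping groups. It was near background on 2 aged arrays and on 0 young ones. Probe set 1448898_at had 317, 266 and 788 in aged muscle and 39.9, 260.6 and 48.3 in young muscle (2.35 ± 1.19, adjusted p = 0.662). Its aged arrays all lay above the young ones, aged replicate 52 only just, but all 6 were near background, so no fold is given.

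Ccl2 and Ccl7, the monocyte chemoattractants MCP-1 and MCP-3, act on Ccr2, and Ccl5, or RANTES, draws T cells and other leukocytes. All 3 were near background. Ccl2 had signals of 1254, 77.7 and 526 in aged muscle, against 269, 1051 and 63.9 in young muscle (log2 difference 0.50 ± 1.33, adjusted p = 0.959). Ccl7 had 663, 902 and 34.5 in aged muscle, against 687, 924 and 117 in young muscle (-0.62 ± 1.34, adjusted p = 0.95), and Ccl5 had 620.3, 459.9 and 77.4 in aged muscle, against 222, 228 and 367 in young muscle (0.09 ± 1.22, adjusted p = 0.994). In each gene the groups overlapped, and the spread within a group exceeded the difference between groups. The 95% intervals ran from -2.27 to 3.28 for Ccl2, from -3.40 to 2.17 for Ccl7 and from -2.45 to 2.62 for Ccl5, and a 4-fold change in either direction lies within each of them.

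Ccl11, or eotaxin, draws eosinophils through Ccr3. It had signals of 1715, 1749 and 1289 in aged muscle, against 1993, 1780.4 and 2296 in young muscle (log2 difference -0.36 ± 0.44, adjusted p = 0.9). Every aged array lay below every young one, by a small margin between aged replicate 52 and young replicate 2. The 3 young arrays were above the background limit and 1 aged array was, and the 95% interval ran from -1.28 to 0.57. Aged replicate 51, at 1715, was under its own limit of 2057 but above the limit of every other array.

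Cxcl12, or SDF-1, is the ligand of Cxcr4 and of the scavenger Ackr3. Probe set 1417574_at had signals of 4798, 4899 and 2673 in aged muscle and 1821, 2111 and 5839 in young muscle (log2 difference 0.49 ± 0.42, adjusted p = 0.83). Probe set 1448823_at had 3431, 2904 and 3605 in aged muscle and 3191, 2805 and 2356 in young muscle (0.26 ± 0.35, adjusted p = 0.912, 95% interval from -0.48 to 0.99). On both the groups overlapped and all arrays were above background, with young replicate 3 the highest of the 6 on the first and the lowest on the second. Probe set 1439084_at had 198, 782 and 201 in aged muscle and 208, 558 and 2441 in young muscle (-1.06 ± 1.11, adjusted p = 0.873), and young replicate 3 alone was above background there.

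Cxcl13 draws B cells through Cxcr5, and its 2 probe sets were opposed. Probe set 1417851_at had signals of 1539, 1492 and 1238 in aged muscle, against 491, 69.5 and 339 in young muscle (log2 difference 2.65 ± 0.94, adjusted p = 0.398). Its groups lay far apart, but all young arrays and 2 of the aged ones were near background, and with the young arrays set at the limit the ratio was at least 1.1-fold. Probe set 1448859_at had 175, 421 and 1055 in aged muscle and 351, 1814 and 1340.0 in young muscle (-1.15 ± 0.92, adjusted p = 0.816), with overlapping groups and 1 young array above background. Cxcl14, or BRAK, had 953, 1913 and 1068 in aged muscle and 1122, 1761 and 813 in young muscle on 1418456_a_at (0.09 ± 0.57, adjusted p = 0.985). On that probe set 1 aged array and 1 young array were above background. On 1418457_at Cxcl14 had 2053, 443 and 422 in aged muscle and 41.2, 1671 and 157 in young muscle (1.72 ± 1.28, adjusted p = 0.799). Here 1 young array and 0 aged arrays were above background, but aged replicate 51, the brightest, was just under its own limit of 2057. The Cxcl14 groups overlapped on both probe sets.

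**Figure D3:**
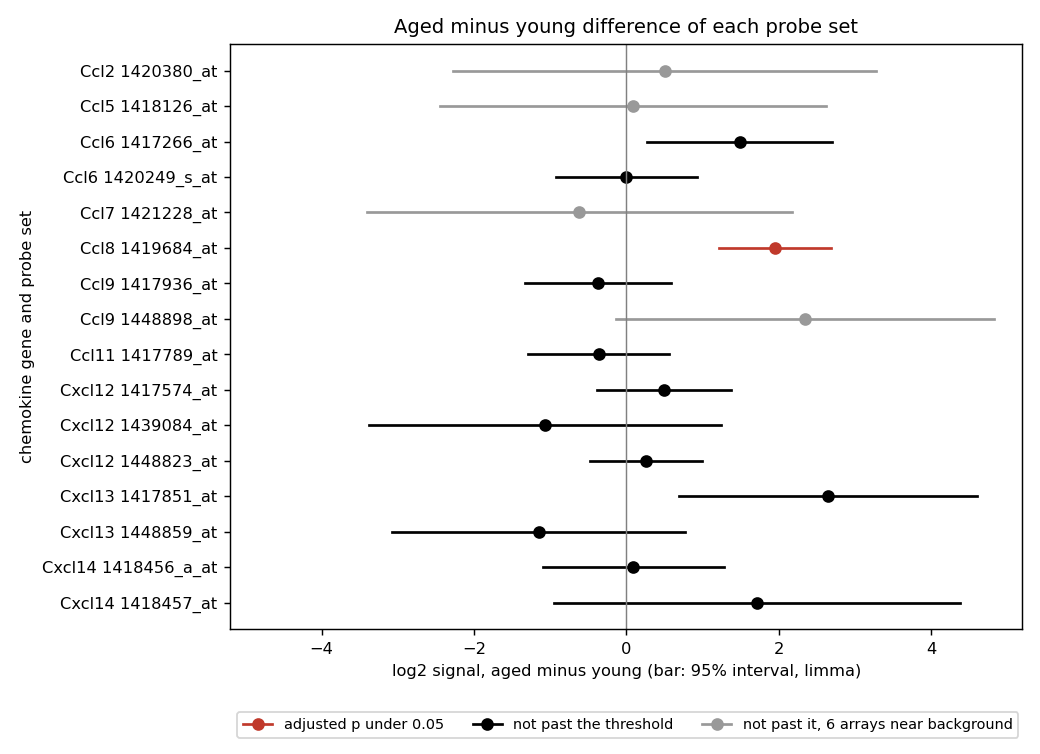
Difference of each chemokine probe set between aged and young muscle (log2 signal, aged minus young) with its 95% interval from limma. Ccl8 (red) passed an adjusted p of 0.05, grey probe sets were near background on all 6 arrays, and the intervals of Ccl2, Ccl5 and Ccl7 span more than 5 units.

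The receptors of these ligands gave no call with limma: of 16 measured chemokine receptor genes, each by its brightest probe set, 0 passed and 0 had an unadjusted p under 0.05, with 8 higher and 8 lower (median -0.051), and 10 were near background on all 6 arrays. The brightest Ccr2 probe set had signals of 2376, 1907 and 1194 in aged muscle and 2047, 2139 and 1627 in young muscle (-0.13 ± 0.45, adjusted p = 0.969). Cxcr4 had 1028, 1089 and 984 in aged muscle and 889.5, 784 and 199 in young muscle (1.00 ± 0.79, adjusted p = 0.814), all near background although the groups did not overlap. Ccr8, the receptor of mouse Ccl8, was at 0.03 ± 1.08 with 1 young array above background. Ccr1 (-0.40 ± 1.13), Ccr3 (-1.06 ± 1.32) and Cxcr5 (-0.13 ± 1.35) were near background on every array on their brightest probe set. The aged arrays lay above the young ones on the dimmer Ccr1 probe set, with signals of 645, 365 and 570.0 in aged muscle and 62.1, 21.2 and 109 in young muscle (3.29 ± 1.13, unadjusted p under 0.05, adjusted p = 0.365), and on 1 of 4 Ccr2 probe sets (0.96 ± 1.01, adjusted p = 0.877). All 6 arrays were near background on both.

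Atypical receptors bind chemokines without the usual signalling and remove or carry them, and syndecans and the protease Dpp4 hold or trim them. Of 9 such genes 0 passed with limma, 2 had an unadjusted p under 0.05, 5 were lower and 4 higher, and the median was -0.74. Ackr3, which clears Cxcl12, had signals of 2032, 2709 and 3028 in aged muscle, against 5024, 4990.5 and 5424 in young muscle (-1.01 ± 0.33, adjusted p = 0.321), and the groups did not overlap. Ackr1, the Duffy receptor of vessel walls, was at 0.25 ± 0.45 and Ackr2, which scavenges inflammatory CC chemokines, at 0.39 ± 0.65. The other gene with an unadjusted p under 0.05 was the syndecan Sdc4, chosen after its values were seen (-0.74 ± 0.28, adjusted p = 0.453).

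Of 25 other measured chemokine ligand genes 0 passed with limma, 1 had an unadjusted p under 0.05, 12 were higher and 13 lower, the median was -0.058, and 13 were near background on all 6 arrays. That gene was the neutrophil attractant Cxcl1, chosen after its values were seen, with signals of 11646, 6386 and 7070.2 in aged muscle and 985, 8964 and 1642 in young muscle (1.73 ± 0.53, adjusted p = 0.252), and young replicate 2 overlapped the aged arrays. Of 13 measured genes that induce chemokine transcription, such as NF-kappaB subunits and inflammatory cytokines, 0 passed with limma and 0 had an unadjusted p under 0.05 (median 0.10).

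**Figure D4:**
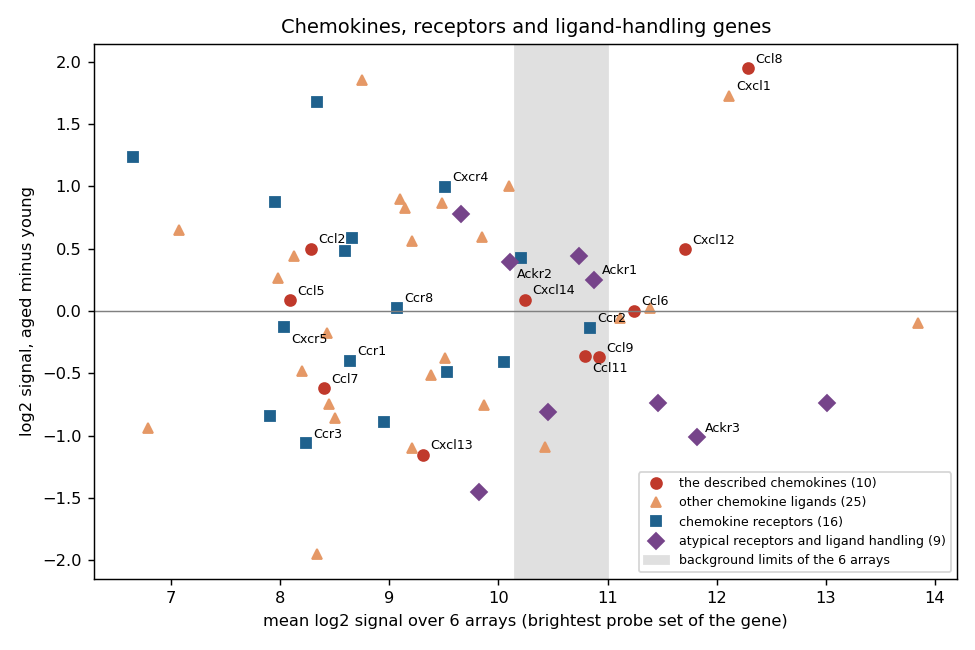
Difference between aged and young muscle (log2 signal, aged minus young) against mean log2 signal over the 6 arrays, for the brightest probe set of each described chemokine, other ligand, receptor and ligand-handling gene, with the range of background limits in grey. Ccl8 is the highest point at 1.95, and most receptors lie left of the limits.

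Markers of the cells that could make or follow chemokines moved with age to different extents, and their part in the Ccl8 difference was not tested. The marker lists were chosen with earlier results of these data known, so counts over them are descriptions. Of 15 macrophage markers 0 passed with limma and 0 had an unadjusted p under 0.05, 8 were higher and 7 lower, and 6 were near background on all arrays. The log2 summed signal of the list, in which Csf1r weighs most, was 16.21 to 16.90 in aged muscle and 16.17 to 16.60 in young muscle. The defining macrophage gene Adgre1 was at 0.15 ± 0.29, Csf1r at 0.29 ± 0.23 and C1qb at 0.31 ± 0.32, while Cd68 was near background. For the pan-leukocyte list (5 genes, 0 passed, 0 with an unadjusted p under 0.05) the sum was 13.65 to 14.79 in aged muscle and 13.41 to 14.22 in young muscle, with Ptprc at 0.60 ± 0.45 and Laptm5 at 0.56 ± 0.32.

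Over all probe sets 0.189% passed higher in aged muscle and 0.4% lower. Of 7 B and plasma cell markers 2 rose. Both were near background on all 3 young arrays and above it on all 3 aged arrays, so their folds are bounds with the young arrays set at the limit. Ighm, the heavy chain of immunoglobulin M, was at least 10.8-fold higher in aged muscle (measured difference 6.28 ± 0.66, adjusted p = 8.36e-06, 1 of 11 probe sets called). The called Ighm probe set is of a kind prone to cross-hybridisation. Jchain, which joins immunoglobulin M subunits, was at least 2.73-fold higher (measured difference 2.94 ± 0.67, adjusted p = 0.0426). Jchain passed in 5 of 17 alternatives, and did not without any 1 of aged replicates 51, 52 and 53 or young replicate 1 (2.06 without the last). The summed signal was 13.56 to 15.31 in aged muscle and 12.13 to 12.35 in young muscle, so the groups did not overlap. On the aged arrays Ighm weighs most in this sum, which therefore largely repeats its call. The B cell gene Ms4a1 was near background on all arrays. By sign 5 of the 7 markers were higher and 2 lower, the lower ones being Pax5 and Cr2, the latter near background on all arrays. Of 5 adipocyte markers 3 rose, the adipokines Retn (2.35 ± 0.33) and Adipoq (1.89 ± 0.29) and the lipid carrier Fabp4 (1.11 ± 0.23, 1 of 4 probe sets called). Retn was at 1.94 (adjusted p = 0.0657) with the fluidics station as a covariate. Fabp4 passed in 8 of 17 alternatives, and did not without aged replicate 52 or any 1 young array. The summed signal of the adipocyte list was 17.19 to 17.96 in aged muscle and 16.16 to 16.38 in young muscle. Of 11 fibroblast markers 7 fell, among them Col1a1 (-5.71 ± 0.29), Col3a1 (-3.89 ± 0.22), Fstl1 (-2.77 ± 0.33) and Pcolce (-2.13 ± 0.26, 1 of 2 probe sets called). The summed signal of the fibroblast list was 16.74 to 16.82 in aged muscle and 19.15 to 19.71 in young muscle. Pdgfra, which marks fibroadipogenic progenitors, was at -0.23 ± 0.31 and did not pass.

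With all 6 arrays, none of the markers of 6 further lists passed with limma. For neutrophils (7 genes, 1 with an unadjusted p under 0.05) the summed signal was 12.48 to 13.42 in aged muscle and 12.20 to 12.25 in young muscle. Mpo was at 1.37 ± 0.54 (adjusted p = 0.495, all young arrays near background) and Ngp at 0.14 ± 0.50. With the young arrays set at the limit the Mpo ratio of means was at least 1.56-fold, which leaves out the spread of the arrays. For T and NK cells (8 genes, 2 with an unadjusted p under 0.05) the summed signal was 13.81 to 15.37 in aged muscle and 12.92 to 14.41 in young muscle, with Cd8a at 1.32 ± 0.40. Cd8a weighs most in this sum, on the brightest of its 5 probe sets, which is of a kind prone to cross-hybridisation. On all 6 arrays 5 of the 8 genes were near background, Nkg7 among them. Cd8a had an adjusted p of 0.246 and passed without aged replicate 53 (1.78, adjusted p = 0.032) and without young replicate 2 (1.86, adjusted p = 0.0252), 2 of its 16 alternatives, whose adjusted p ran from 0.0252 to 0.797. For dendritic cells (5 genes, 0 with an unadjusted p under 0.05) the summed signal was 12.33 to 12.71 in aged muscle and 11.64 to 12.31 in young muscle. Zbtb46 was at 0.56 ± 0.48 and Itgax at 1.15 ± 0.64 (adjusted p = 0.697). Itgax was near background on all young arrays and on 2 aged ones. With the young arrays set at the limit its ratio of means was 1.13-fold, which leaves out the spread of the arrays. Eosinophil and mast cell markers (9 genes, 7 of them near background) had 12.33 to 12.71 in aged muscle and 11.58 to 12.56 in young muscle, with Tpsb2 at 0.32 ± 0.54 and Cpa3 at 0.46 ± 0.54. Endothelial markers (8 genes) had 13.27 to 13.81 in aged muscle and 13.65 to 13.89 in young muscle, with Kdr at 0.18 ± 0.32, Vwf at -0.03 ± 0.44 and Pecam1 near background. Muscle fibre markers (8 genes, 6 with an unadjusted p under 0.05) had 20.61 to 20.76 in aged muscle and 21.07 to 21.30 in young muscle, with Acta1 at -0.63 ± 0.23, Ckm at -0.77 ± 0.26 and Myh4 at -0.15 ± 0.26. Of these 6 lists the sums of the groups did not overlap for neutrophils, dendritic cells and muscle fibres.

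**Figure D5:**
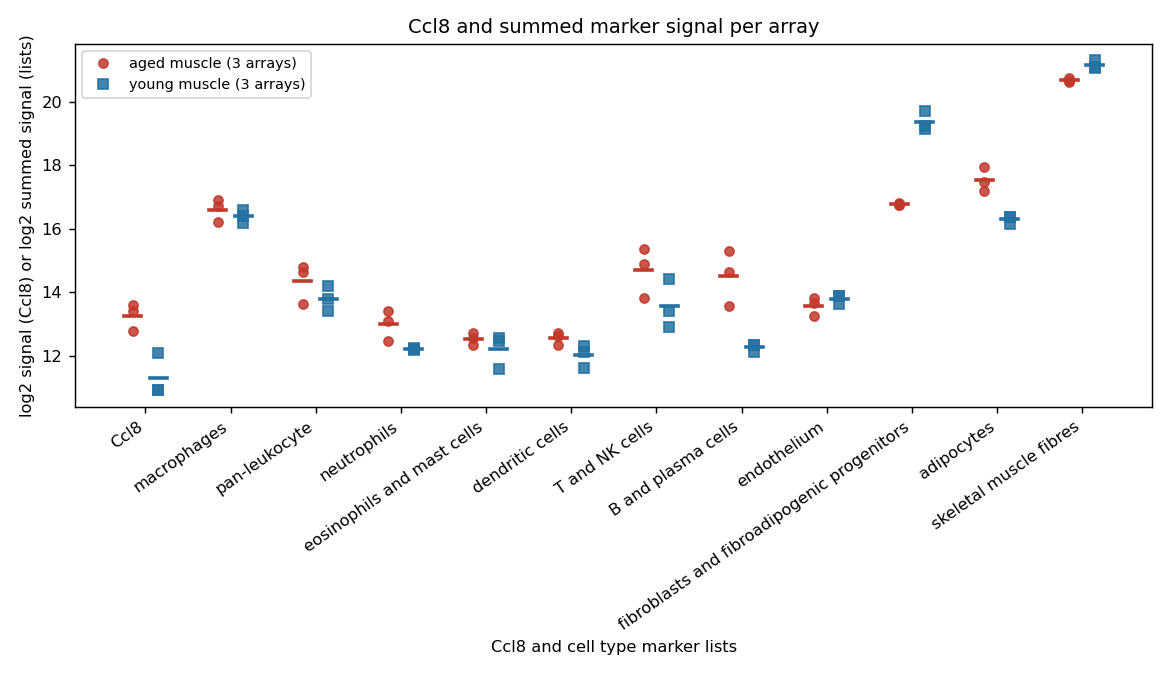
Log2 signal of Ccl8 and log2 summed signal of each cell type marker list on the 3 aged arrays (red circles) and the 3 young arrays (blue squares), with group means as bars. The groups lie apart for Ccl8 and for the B and plasma cell, fibroblast, adipocyte, neutrophil, dendritic cell and muscle fibre lists, and overlap for macrophages. The dendritic cell groups lie apart only by a small margin.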

How the data were processed

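Total RNA was labelled with biotin and hybridised to Affymetrix mouse arrays, 1 sample each, per the labels' protocols. The authors deposited a linear-scale intensity for every probe set, for which the submitters' processing notes name MAS5, with version and settings not given in the sources used here. On every array the mean after trimming 2% at each end was 1500, so the deposited values had been scaled, which assumes a like mean in all samples. The run settings that the authors deposited gave the fluidics station and protocol.

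Intensities were taken to log2 with no pseudocount, and 64 control probe sets were left out. No filter on brightness was used, since the chemokine probe sets include dim ones (6 lie below the median brightness, a signal of 540). Aged and young arrays were set against each other in R 4.3.3 by limma 3.58.1 (lmFit, eBayes with a trend, two-sided, Benjamini-Hochberg over 45037 probe sets, threshold 0.05), which was tested on simulated data. A gene of several probe sets is represented in lists by the brightest. The probe sets that stand for Ackr3, Cxcl1, C1qb, Laptm5, Ighm and Cd8a are of kinds prone to cross-hybridisation. Alternatives were other normalizations, filters, variance models, covariates and arrays left out. Sequences and motifs were handled in Python 3.11.15 with pandas 2.3.3, and figures drawn with matplotlib 3.10.9. All 16 chemokine probe sets matched RefSeq by gene ID, and 6 of the 10 genes had a promoter in the table.

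The chemokines and lists were chosen with earlier results of these data known. The text names all 10 chemokines with every probe set, 10 receptors and 7 cell markers always, up to 4 called genes of each list, the 2 brightest of a cell type list with no call, and the 3 genes most correlated with a called chemokine. With 3 arrays per group, their number limits the precision. On the log2 scale the spread is widest for dim probe sets.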

Additional observations from a re-analysis of the deposited data

How the results depend on the processing

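Ccl8 was higher in aged muscle under all 17 alternatives (1.69 to 2.34) and passed in 14, the exceptions being without young replicate 1, with the RNA quality covariate and without the trend. No other chemokine probe set passed in any of the alternatives run for it. Signs of uncalled chemokine probe sets changed for at most 3 of 16 in any alternative. The number of chemokine probe sets called was 0 to 1 with 1 array left out, 0 with the RNA quality covariate and 0 without the trend. The number called over all probe sets was 175 to 416 with 1 array left out (175 without young replicate 1, 416 without aged replicate 53), 553 on the first fluidics station alone and 0 without the trend. The median over the chemokine genes was -0.40 (without aged replicate 51) to 0.23 with 1 array left out, 0.60 with the station as a covariate and on the first station alone, and 0.62 with all probe sets of a gene averaged. The number of chemokine probe sets near background was 9 at the 99th percentile of the receptor probe sets and 1 at the median of all probe sets, and 4 at the 90th percentile as at the 95th. The causes were not tested, except that leaving arrays out also leaves fewer samples. Median centring set the median of all probe sets at -0.04, against 0.076 as deposited, a shift that is the same for every probe set. No paired analysis was possible because the aged and young arrays share no replicate numbers.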
